A study of Mus musculus with 80 samples.

Results

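The genes described here are those of the cytosolic ribosomal proteins, the protein parts of the ribosomes that translate nuclear messenger RNAs. They were chosen by symbol from the table of gene levels: every Rpl or Rps symbol with a number and at most the letter a, x or l after it, together with Rplp0, Rplp1, Rplp2 and Rpsa, and without the annotated pseudogenes. This gave 81 genes of 25899 with a distinct symbol, 49 of the large and 32 of the small subunit, spread over 19 chromosomes. Among them are 4 paralogues of other members, Rps27l, Rpl3l, Rpl10l and Rpl39l.

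The cells were muscle stem cells (MuSCs), the Pax7-positive cells that regenerate muscle fibres, sorted by nuclear GFP from Tg:Pax7-nGFP male mice of 7.0 to 7.6 weeks on a C57BL/6;DBA2 F1/JRj background. They came from the extraocular muscles (EOM), which move the eye, or from the tibialis anterior (TA), a limb muscle, and were profiled either directly from the donor (pre-graft, 500 cells a library) or after transplantation. For grafts, EOM and TA cells of a donor were injected into separate TA muscles of the same Rag2-/-;γC-/- recipient on a C57BL/6J background, an immunodeficient host whose muscle had been injured with cardiotoxin, and GFP-positive cells were sorted again at the time labelled day 21. Both graft groups thus share a TA host, an injury and the immunodeficiency, and no orthotopic graft into EOM enters the comparisons. Grafts held fewer cells by their labels, down to 9 in an EOM graft and 16 to 67 in the TA grafts. Of 40 RNA libraries the 30 that passed the quality control of the study were compared: 8 EOM pre-graft, 8 TA pre-graft, 7 EOM grafts and 7 TA grafts, from 2 experiments. Replicates are separate donor mice.

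A eukaryotic ribosome carries one copy of nearly every ribosomal protein, and cells keep the supply of the different proteins balanced. Many of their messenger RNAs begin with a C followed by a run of C and T (a 5′ terminal oligopyrimidine, or TOP, tract), through which mTOR signalling controls their translation. Quiescent MuSCs are known for low biosynthetic activity, which rises when they enter the cycle, and ribosomal protein messenger RNAs are among the most abundant in any cell.

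To show the tract beside the genes it belongs to, 30 bases around the annotated RefSeq start (GRCm38.p6) of 7 members are printed 5′ to 3′ on the transcribed strand, with the pyrimidine run in capitals. The first 4 hold a run and the other 3 hold none in the window searched. They are shown because the results below turn on them: Rps6 is the classic target of the S6 kinases, Rps26 had the lowest differences after grafting, Rplp2 and Rplp0 form part of the stalk, Rpl38 was lower in both muscles, Rpl41 was not called, and Rpsa shares reads with a close copy.
Rps6, chr4:86857353-86857382, minus strand: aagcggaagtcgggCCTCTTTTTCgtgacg
Rps26, chr10:128626492-128626521, minus strand: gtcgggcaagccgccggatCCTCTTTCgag
Rplp2, chr7:141447636-141447665, plus strand: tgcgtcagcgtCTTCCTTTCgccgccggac
Rpl38, chr11:114668565-114668594, plus strand: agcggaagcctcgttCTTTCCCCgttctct
Rplp0, chr5:115559452-115559481, plus strand: gtcttcgggtttcgaggaccgcctggttct
Rpl41, chr10:128549154-128549183, minus strand: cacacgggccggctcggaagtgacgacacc
Rpsa, chr9:120127751-120127780, plus strand: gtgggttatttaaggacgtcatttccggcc
The search took a C followed by at least 4 bases that were each C or T, starting within 10 bases on either side of an annotated start, on the transcribed strand. Such a run stood at 33 of the 60 members with a RefSeq start (55%) and at 7740 of 26965 other genes (28.7%). On the other strand of the same windows it stood at 10 of 60 members (16.7%) and at 31.7% of the other genes. A match is a description of the letters, and an annotated start a few bases off moves the window.

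Depth and quality of the libraries came first. The 30 libraries held 963432 to 4169357 reads on genes. The share of reads from mitochondrial genes moved with the groups, with medians of 3.56% in EOM pre-graft, 10.7% in TA pre-graft, 33.04% in EOM graft and 25.3% in TA graft libraries. Libraries of Experiment 1 had at most 5.45%, and all higher values came from Experiment 2. Marker genes moved as well. The 10 MuSC markers summed to 15650 to 20073 RPM (reads scaled to the size of the library) in EOM pre-graft and 14204 to 25820 in TA pre-graft libraries, against 1540 to 16260 in EOM grafts and 288 to 11269 in TA grafts, with 7 of 10 lower in EOM grafts and 10 of 10 in TA grafts. All 10 had reads in every pre-graft library, and 9 of 10 in every EOM graft and in every TA graft. The 6 endothelial markers were higher in both kinds of graft, from sums of 0 to 334 RPM to 93.3 to 2023 RPM in EOM and from 3.02 to 1254 RPM to 585 to 2845 RPM in TA. Of the 6 myofibre markers 5 were higher in EOM and 2 in TA grafts, and of the 6 fibro-adipogenic markers 1 was higher and 1 lower in EOM grafts and 5 were higher in TA grafts. The 5 lymphocyte markers summed to at most 44.8 RPM in any library, with Cd3g at 0 in all 4 groups. Of the 3 erythroid markers 1 was higher and of the 4 Schwann cell markers 1 was lower in EOM grafts, and 1 of 5 macrophage markers was higher in TA grafts. The part of these cell types and of the mitochondrial share in the differences below was not tested further than by the fits named there.

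Levels are given as log2 RPM minus the median log2 RPM of all genes with a read in the same library, so that 0 is the median detected gene and 1 unit is a 2-fold difference. On this scale the median of the 81 members was lowest, middle and highest at 4.70, 5.31 and 5.71 in the 8 EOM pre-graft libraries, with a mean of 5.30 ± 0.31 (SD, n = 8). In the 8 TA pre-graft libraries the same 3 values were 4.53, 5.00 and 5.45, with a mean of 5.01 ± 0.37 (SD, n = 8). In the 7 EOM grafts they were 3.45, 4.44 and 5.18, with a mean of 4.39 ± 0.53 (SD, n = 7), and in the 7 TA grafts 3.93, 4.57 and 4.84, with a mean of 4.44 ± 0.36 (SD, n = 7). Pre-graft libraries were thus higher than grafts in both muscles, with overlap in each. In these sorted bulk samples fewer cells of a type and less RNA per cell cannot be told apart.

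**Figure D1:**
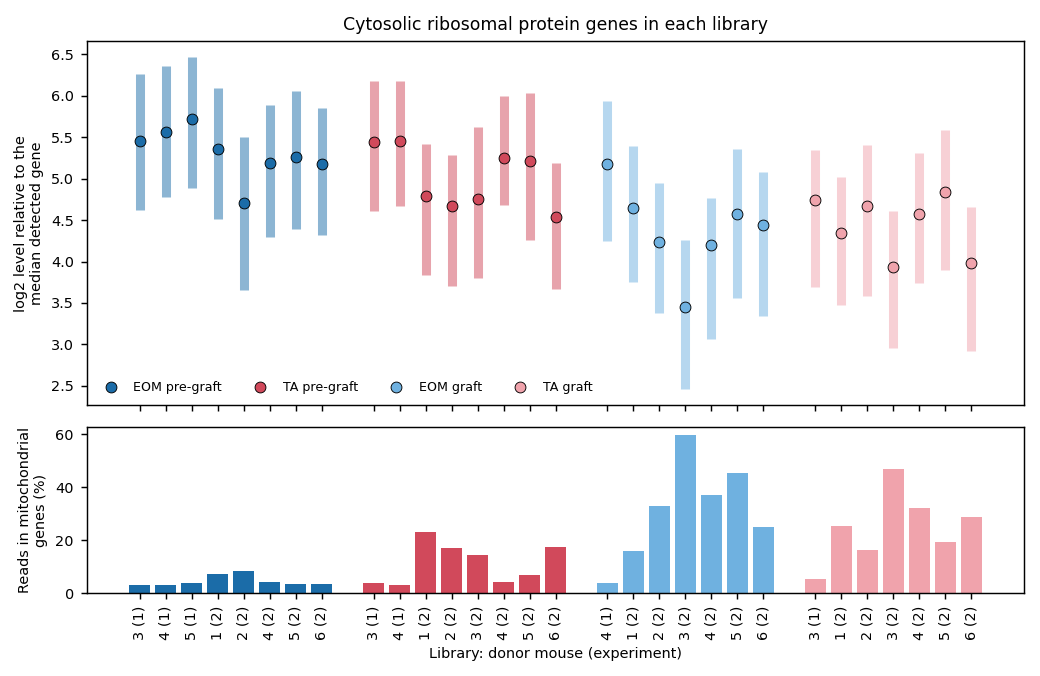
Median level of the 81 ribosomal protein genes in each of the 30 libraries (points, log2 RPM minus the median detected gene; bars, quartiles over the members), above the percent of reads in mitochondrial genes (bars) in the same library. EOM pre-graft libraries sit between 4.70 and 5.71, EOM grafts between 3.45 and 5.18, and the library with the highest mitochondrial share, 59.6%, has the lowest member median.

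The share of reads was lower in grafts as well. Members took 5.96% to 9.48% of reads on genes in EOM pre-graft libraries, with a median of 8.42%, and 4.05% to 9.24% in TA pre-graft libraries, with a median of 6.92%. In EOM grafts the share ran from 1.10% to 8.14%, with a median of 2.64%, and in TA grafts from 0.835% to 5.32%, with a median of 3.85%. Counted against reads on nuclear genes only, which leaves the mitochondrial reads out, the medians were 8.91%, 8.01%, 6.13% and 5.46% for EOM pre-graft, TA pre-graft, EOM graft and TA graft libraries, so that the EOM grafts lay below the TA grafts by the first share and above them by the second. The experiments differed within a group. In EOM grafts the library of Experiment 1 lay at 5.18 with 3.85% mitochondrial reads, above the 6 of Experiment 2 at 3.45 to 4.64 with 15.9% to 59.6%. TA pre-graft libraries lay at 5.44 and 5.45 in Experiment 1 and at 4.53 to 5.24 in Experiment 2.

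Levels of different members can be compared only per length of transcript, taken here as the median over the annotated coding transcripts of the gene. Per kilobase Rplp1, an acidic protein of the stalk that recruits elongation factors, was the highest member in all 4 groups, at 6503 ± 1422 RPM per kb in EOM pre-graft libraries (SD, n = 8) and 2772 ± 1837 in EOM grafts (SD, n = 7). Rps4x, the X-linked form of a small subunit core protein, came next before grafting, at 5897 ± 881 RPM per kb in EOM and 4045 ± 1188 in TA (SD, n = 8 each), within the spread of Rplp1. The median member lay at 1667 RPM per kb in EOM pre-graft, 1325 in TA pre-graft, 593 in EOM graft and 588 in TA graft libraries. At the bottom of the canonical members in every group but TA pre-graft stood Rpl22, an RNA-binding large subunit protein, at 158 ± 26.6 RPM per kb in EOM pre-graft libraries (SD, n = 8). In TA pre-graft libraries Rpl21 stood below it.

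The paralogues of narrow expression were near or at 0. Rpl10l, the germline copy of Rpl10, had no read in any of the 30 libraries, while Rpl10 itself, a late-joining large subunit protein, stood at 2313 ± 259 RPM per kb in EOM pre-graft libraries (SD, n = 8). Rpl3l, the form of Rpl3 found in differentiated striated muscle, had 0 to 22 reads a library, and Rpl39l, the germline form of the exit tunnel protein Rpl39, had 0 to 18. These 3 members did not pass the filter on low values in any comparison of 2 groups, which left 78 of 81 tested there. Rps27l, the p53-responsive copy of Rps27, was expressed, at 435 ± 77.4 RPM per kb against 4490 ± 1210 for Rps27 in EOM pre-graft libraries (SD, n = 8).

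The next question was whether grafting moved these genes in TA cells, which were returned to the muscle of their origin. In TA grafts 25 of 78 members tested were lower than before grafting and 0 were higher (limma, Benjamini-Hochberg adjusted p under 0.05). Of all 13076 genes tested in this comparison 10.8% were lower and 6.03% higher. The median difference over the 81 members was -0.56 on the log2 scale, and that of all genes tested was -0.44, so the members lay 0.13 below the genes as a whole. Of the 46 large subunit members tested 17 were lower, and of the 32 small subunit members 8.

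The same comparison in EOM cells, which had been placed in a foreign muscle, gave more calls. In EOM grafts 72 of 78 members tested were lower and 0 were higher, against 21.6% lower and 4.78% higher of 13094 genes tested. The median difference was -1.005 over the 81 members and -0.75 over all genes tested, 0.25 apart. More than 2-fold lower were 41 members in EOM grafts, where this held for 17.9% of genes, and 3 members in TA grafts, where it held for 9.53%. The 41 became 76 on the deposited scale, 10 with the donor mouse as a block, 4 when the scale left out mitochondrial genes, 2 when libraries were centred on genes detected in all of them, 2 without the grafts of over 30% mitochondrial reads and 0 with edgeR, DESeq2 or the mitochondrial share as a covariate. The share of all genes over 2-fold lower is not given for these fits, nor for those that leave out 1 library. Their counts show only how far the number of members moved, not whether it differed from that of genes in general. The large subunit gave 43 and the small subunit 29 of the 72. All 25 members lower in TA grafts were among the 72 lower in EOM grafts, which is 100% of the first and 34.7% of the second list. Since 92.3% of the members tested were lower in EOM grafts, nearly any such list would fall among them. The comparisons share donors and recipients, though no library.

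These counts depended on the scale, on the tool and on the libraries and covariates that entered. The mitochondrial share moved with grafting. It ran from 2.91% to 8.16% in EOM pre-graft libraries and from 3.85% to 59.6% in EOM grafts. In TA it ran from 3.22% to 22.9% before grafting and from 5.45% to 46.8% after. A fit with this share as a covariate therefore cannot separate its part from that of grafting. In EOM grafts the number lower was 77 on the deposited scale, 40 when the scale left out mitochondrial genes, 38 when libraries were centred on genes detected in all of them, 43 with the donor mouse as a block, 21 with edgeR, 29 with DESeq2, 21 without the grafts of over 30% mitochondrial reads and 0 with the mitochondrial share as a covariate. As shares of the members tested these are 98.7%, 51.3%, 48.7%, 55.1%, 26.9%, 37.2%, 26.9% and 0%. Of all genes 58.4%, 8.58%, 7.55%, 4.19%, 3.83%, 5.67%, 11.7% and 0.221% were lower in the same fits. In TA grafts the number lower was 68 as deposited, 17 without mitochondrial genes, 8 on genes detected throughout, 24 with the block, 8 with edgeR, 8 with DESeq2, 12 without those grafts and 0 with the covariate. As shares of the members tested these are 87.2%, 21.8%, 10.3%, 30.8%, 10.3%, 10.3%, 15.4% and 0%. Of all genes 31.4%, 8.47%, 7.24%, 7.49%, 3.86%, 5.35%, 9.7% and 2.55% were lower in the same fits. Within Experiment 2 alone 55 members were lower in EOM and 3 in TA grafts, with medians of -0.94 and -0.46. These are 70.5% and 3.85% of the members, where 10.3% and 3.69% of all genes were lower with gene medians of -0.82 and -0.46, so that in TA the members matched all genes there. Experiment 1 has 1 graft a muscle and no test of its own. The cut at 30% mitochondrial reads took out the EOM grafts of mice 2, 3, 4 and 5 of Experiment 2. It also took out the TA grafts of mice 3 and 4 of Experiment 2. The fits without them, also that of TA over EOM grafts below, thus held fewer grafts and had less power. Leaving out 1 library moved the TA count to between 9 and 36. It fell to 14 without the TA graft of mouse 3, to 9 without that of mouse 6, to 14 without the TA pre-graft library of mouse 4 and to 11 without that of mouse 5, all of Experiment 2, and to 11 and 12 without the TA pre-graft libraries of mice 3 and 4 of Experiment 1. All genes lower in TA moved as well, from 1417 with none left out to between 860 and 1758. The fit with 36 members was the one with 1758 genes. The number over 2-fold lower in EOM grafts fell from 41 to 17 without the graft of mouse 3 of Experiment 2, while 66 to 75 members stayed lower whichever library was left out. All genes lower in EOM grafts, 2827 with none left out, ran from 1905 to 3518 in these fits. In TA grafts the 3 members over 2-fold lower became 1 without the graft of mouse 3 of Experiment 2, 7 without that of mouse 5 of Experiment 2, 5 without that of mouse 3 of Experiment 1, and 5 and 6 without the TA pre-graft libraries of mice 2 and 6 of Experiment 2.

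**Figure D2:**
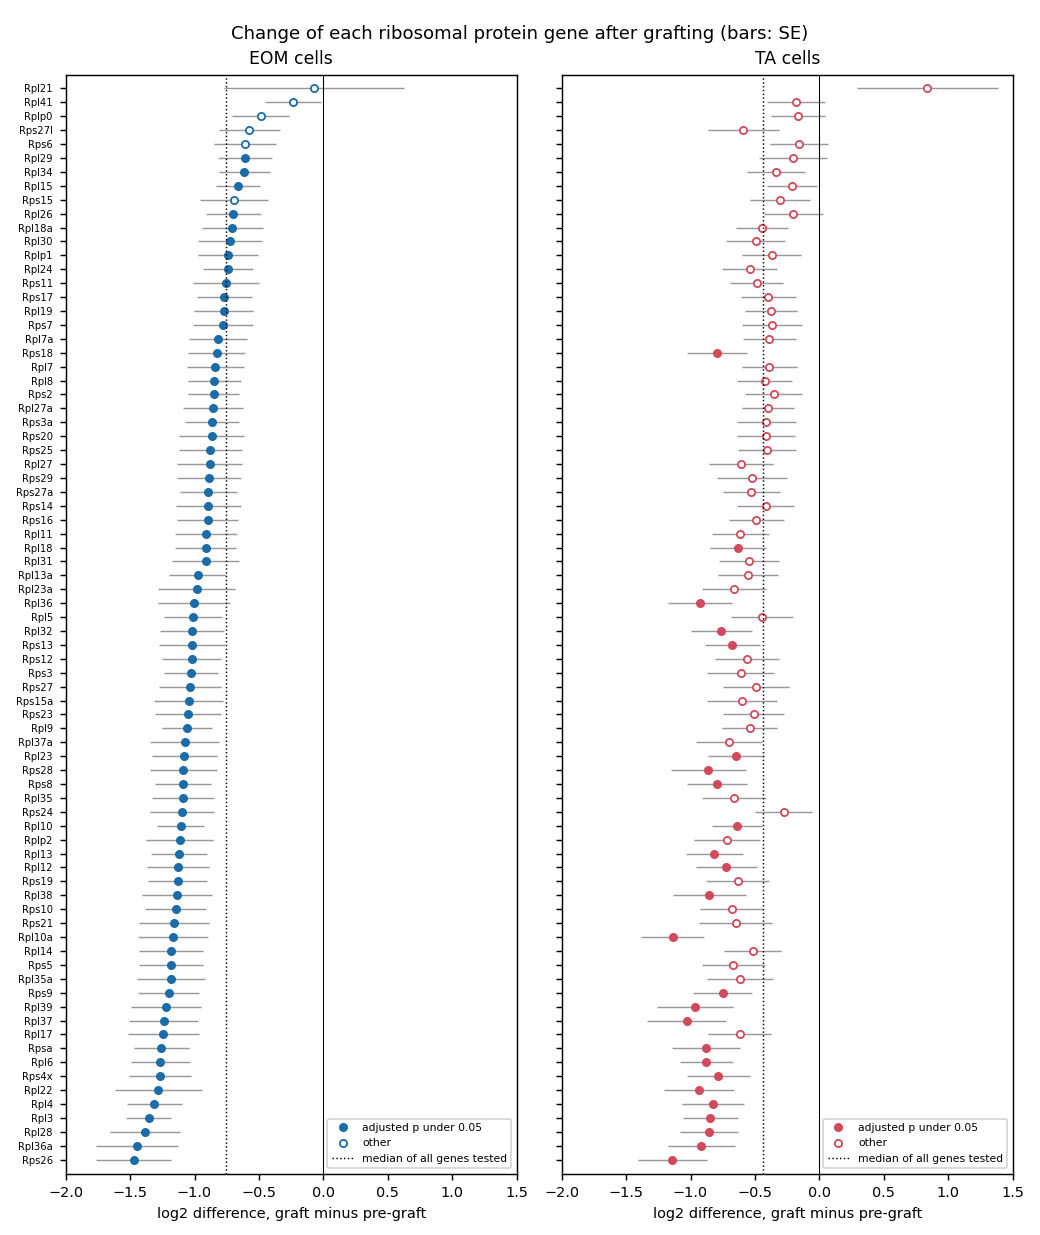
Log2 difference of graft over pre-graft for each of the 78 ribosomal protein genes tested, sorted, in EOM (left) and TA (right), with standard errors as bars, filled points for adjusted p under 0.05 in limma and a dotted line at the median of all genes tested. In EOM 72 points are filled and all lie below 0, and in TA 25 are filled and Rpl21 alone lies above 0.

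Among the large subunit proteins Rpl3, which lies close to the peptidyl transferase centre, was the clearest. Its level was lowest, middle and highest at 5.13, 5.44 and 5.69 in EOM pre-graft libraries and at 3.48, 4.09 and 4.76 in EOM grafts. Every EOM graft thus lay below every EOM pre-graft library, with a difference of -1.36 ± 0.17 (SE, adjusted p = 8.34e-05), and Rpl3 remained lower with the donor block (-1.25, adjusted p = 0.0129). In TA it went from 4.76, 5.12 and 5.48 to 3.49, 4.37 and 4.89, where 2 grafts overlapped the pre-graft libraries, a difference of -0.85 ± 0.22 (SE, adjusted p = 0.012). Only Rpl3 and Rpsa had EOM groups that did not overlap, 2 of 78 members against 4.51% of all genes tested.

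Rpl10a, which lies near the exit of transfer RNA, stood at 4.85, 5.11 and 5.59 in TA pre-graft libraries and at 3.17, 4.04 and 4.69 in TA grafts. The groups did not overlap, and the difference was -1.14 ± 0.24 (SE, adjusted p = 0.00462). Rpl6 was the other member without overlap in TA, from 4.84, 5.07 and 5.64 to 3.71, 4.42 and 4.81, at -0.88 ± 0.21 (SE, adjusted p = 0.00775), and 2.88% of all genes tested there had no overlap. In EOM grafts Rpl10a was lower by a like amount, -1.17 ± 0.27 (SE, adjusted p = 0.00658), with the graft of mouse 4 of Experiment 1 above the lowest pre-graft library. That graft, which had 3.85% mitochondrial reads, was also the only one of the EOM grafts to overlap the pre-graft libraries for Rpl4, Rpl5, Rpl6, Rpl10, Rpl14, Rpl28, Rpl36a, Rpl39, Rps4x and Rps26.

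Other large subunit members were among those lower in EOM grafts by over 1 log2 unit on the scale used here, a size that depended on the scale and the tool, as the counts above show. Rpl36a fell from 3.50, 4.48 and 4.97 to 1.52, 3.30 and 4.03, at -1.45 ± 0.32 (SE, adjusted p = 0.00472). Rpl28 differed by -1.38 ± 0.27 (SE, adjusted p = 0.00233), and Rpl4, which lines the exit tunnel, by -1.31 ± 0.21 (SE, adjusted p = 0.00059). Rpl38, known from the translation of Hox messenger RNAs in the mouse embryo, went from 2.55, 3.43 and 4.04 to 1.499, 1.99 and 3.04 in EOM, at -1.14 ± 0.27 (SE, adjusted p = 0.00704), and it was lower in TA as well (-0.86 ± 0.28, adjusted p = 0.0413). Rpl37 and Rpl39, small proteins of the large subunit, were lower in TA grafts by -1.03 ± 0.30 (SE, adjusted p = 0.0253) and -0.97 ± 0.29 (adjusted p = 0.029). Rpl22 differed by -1.28 ± 0.34 in EOM (SE, adjusted p = 0.0119) and by -0.93 ± 0.27 in TA (adjusted p = 0.0234). Rpl5 and Rpl11, which with the 5S ribosomal RNA form the particle that binds Mdm2, were lower in EOM grafts by -1.01 ± 0.23 (SE, adjusted p = 0.00503) and -0.91 ± 0.24 (adjusted p = 0.0126). In TA grafts neither passed the test, with values of -0.45 ± 0.24 (SE, adjusted p = 0.197) and -0.61 ± 0.22 (adjusted p = 0.0605).

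The proteins of the stalk are given together, and the differences between them were not tested. Rplp0, the base of the stalk and a common reference gene, stood at 6.43, 6.79 and 7.37 in EOM pre-graft libraries and at 5.38, 6.61 and 6.97 in EOM grafts. The groups overlapped widely, and the difference of -0.49 ± 0.22 did not pass the test (SE, adjusted p = 0.1). In TA the difference of Rplp0 was -0.17 ± 0.21 (SE, adjusted p = 0.601). Rplp1 and Rplp2, the acidic partners that bind Rplp0 in pairs, were lower in EOM grafts by -0.74 ± 0.23 (SE, adjusted p = 0.0282) and -1.12 ± 0.26 (adjusted p = 0.00652). In TA grafts they stood at -0.37 ± 0.23 (SE, adjusted p = 0.267) and -0.72 ± 0.26 (adjusted p = 0.0593). Rpl41, the smallest ribosomal protein, stood at 4.67, 5.23 and 5.72 in EOM pre-graft libraries and at 4.17, 5.14 and 5.57 in EOM grafts. These groups overlapped over most of their range, with a difference of -0.24 ± 0.22 (SE, adjusted p = 0.404).

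Of the small subunit proteins Rps26, which sits at the exit of the messenger RNA channel, had the lowest differences of all members. It went from 3.83, 4.67 and 5.07 to 2.06, 3.45 and 4.25 in EOM, at -1.47 ± 0.29 (SE, adjusted p = 0.00246). In TA it went from 3.67, 4.26 and 5.19 to 2.51, 3.26 and 3.75, at -1.14 ± 0.26 (SE, adjusted p = 0.00723). In each muscle a single graft lay above the lowest pre-graft library. Rpsa, the small subunit protein also known as the laminin receptor, went from 6.31, 6.62 and 7.14 to 4.52, 5.69 and 5.96 in EOM without overlap, at -1.26 ± 0.21 (SE, adjusted p = 0.000829), and differed by -0.88 ± 0.26 in TA (SE, adjusted p = 0.0277). The split of its reads with a close copy differed between donors and shifted in some grafts, as given below.

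Rps6, the target of the S6 kinases downstream of mTOR, was at 4.22, 5.01 and 5.12 in EOM pre-graft libraries and at 3.16, 4.26 and 5.31 in EOM grafts, where the highest graft lay above every pre-graft library. Its differences of -0.61 ± 0.24 in EOM (SE, adjusted p = 0.0657) and -0.16 ± 0.22 in TA (adjusted p = 0.646) did not pass the test. Rps3, of the messenger RNA entry site, was lower in EOM grafts by -1.03 ± 0.21 (SE, adjusted p = 0.00304) and stood at -0.61 ± 0.26 in TA (adjusted p = 0.105). Rps27a, made as a fusion with ubiquitin, was lower in EOM grafts by -0.89 ± 0.22 (SE, adjusted p = 0.00867) and stood at -0.53 ± 0.22 in TA (adjusted p = 0.102).

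Rps27 and Rps27l were the only pair of paralogues with both members tested. Rps27 was lower in EOM grafts by -1.03 ± 0.24 (SE, adjusted p = 0.00658), while Rps27l at -0.57 ± 0.24 did not pass the test (adjusted p = 0.0761); the difference between the 2 was not tested. Rps4x was lower in both muscles, by -1.27 ± 0.24 in EOM (SE, adjusted p = 0.0017) and -0.78 ± 0.25 in TA (adjusted p = 0.0329). The 6 members of 78 that did not pass in EOM grafts were Rps6, Rplp0, Rpl21, Rps27l, Rps15 and Rpl41.

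Each library was also centred on the median of the 81 members. In TA grafts Rps26 (-0.57, adjusted p = 0.0417) and Rpl10a (-0.57, adjusted p = 0.0297) were then lower than the members as a whole. In EOM grafts Rps26 was lower (-0.56, adjusted p = 0.0497) and Rpl41 higher (0.68, adjusted p = 0.00305). No other member passed in these 2 comparisons on this scale, with limma and adjustment over all genes tested. Of all genes tested 2.98% were lower in TA grafts on this scale, and 2.15% were lower and 10.5% higher in EOM grafts. The members' counts, 2 of 78 lower in TA and 1 of 78 in each direction in EOM, were at or below those shares. Centring on the members removes the change that they share, so that low count follows from the scale.

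Before grafting few members were called between the muscles of origin. In TA over EOM pre-graft libraries 2 of 78 members tested were lower and 0 higher (limma, adjusted p under 0.05), against 4.04% lower and 1.82% higher of 13217 genes tested; 26 members (and 20.1% of all genes) had an unadjusted p under 0.05, edgeR called 0 and DESeq2 2 lower. The 26 became 9 when the scale left out mitochondrial genes, 6 with edgeR and 3 when centred on the members. The median difference was -0.32 over the 81 members and -0.20 over all genes tested, and all 78 tested members had a value below 0, as had 66.3% of genes. The member median came to -0.19 when the scale left out mitochondrial genes and to 0.04 with the mitochondrial share as a covariate, with gene medians of -0.08 and -0.05. Within Experiment 2 the member median was -0.28 and the gene median -0.27. There 1 member (1.28%) was called lower, against 2.01% of all genes.

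The 2 members called were both of the large subunit. Rpl10 stood at 5.45, 5.80 and 6.03 in EOM and at 4.97, 5.19 and 5.51 in TA pre-graft libraries, at -0.51 ± 0.12 (SE, adjusted p = 0.0122). The groups overlapped by a narrow margin at the top of TA and the bottom of EOM. Rpl14 stood at 5.06, 5.57 and 5.84 in EOM and at 4.71, 4.85 and 5.51 in TA, at -0.54 ± 0.15 (SE, adjusted p = 0.029). At the other end Rpl41 differed by -0.01 ± 0.19 (SE, adjusted p = 0.987) and Rps18 by -0.02 ± 0.19 (adjusted p = 0.975). Rps24, Rps4x and Rps23, all of the small subunit, stood as low as the called pair, at -0.53 ± 0.19, -0.50 ± 0.18 and -0.50 ± 0.19, and did not pass the test (SE, adjusted p = 0.106, 0.103 and 0.131). The count was 8 without the EOM pre-graft library of mouse 2 of Experiment 2, and 1 without any of 7 other libraries: the TA pre-graft libraries of mice 1, 2 and 6 and the EOM pre-graft library of mouse 5 of Experiment 2, and the EOM pre-graft libraries of mice 3, 4 and 5 of Experiment 1. All genes lower, 534 with none left out, ran from 412 to 591 when 1 library was left out, with 591 in the fit of 8 members.

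After grafting no difference between origins was found. In TA over EOM grafts 0 of 78 members were called in either direction (limma; edgeR and DESeq2 also 0), 0 had an unadjusted p under 0.05, and of all 12377 genes tested 0% were called higher and 0% lower. The median difference was 0.06 over the 81 members and 0.11 over all genes, and the member median turned to -0.02 when the scale left out mitochondrial genes and when libraries were centred on genes detected throughout, and to -0.27, with -0.21 over all genes, without the grafts of over 30% mitochondrial reads. Standard errors of single members ran from 0.24 to 0.59, so differences of that order were not detectable with 7 grafts a group. The members farthest from 0 were Rpl21 at 0.67 ± 0.59 and Rps24 at 0.28 ± 0.30 (SE, adjusted p = 0.998 for each).

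The change of EOM cells minus the change of TA cells asks whether the members fell further in cells away from their muscle of origin. Its median was -0.41 over the 81 members and -0.24 over all genes tested. Of 79 members tested 0 were called (limma; edgeR and DESeq2 also 0), 1 had an unadjusted p under 0.05, and 0.0554% of 14428 genes were called higher and 0.097% lower. That member was Rps24, at -0.82 ± 0.34 (SE, adjusted p = 0.572). The larger count in EOM than in TA grafts is therefore not shown to be a difference between the muscles.

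Donors left a pattern of their own in a few members. For each of the 78 members tested in pairs of groups, the level relative to the member median was compared over the 9 donors within groups, as a description with the genes picked after their values were seen. The share of the spread within groups that lay between donors had a median of 34.7% over these members, near the 30.03% that the number of donors gives with no donor effect, and was over 65% for 6 of them: Rpl21, Rplp0, Rps7, Rpl15, Rps9 and Rpsa. For Rplp0, at 76.3%, the experiment alone held 46.8%. Rpl29, drawn with them in the plot by donor, had an SD within groups of 0.51 log2 units.

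Rpl21, a large subunit protein, was the most uneven, at 78.2%, and its differences after grafting, 0.84 ± 0.55 in TA and -0.07 ± 0.70 in EOM, had the largest errors of the members tested (SE, adjusted p = 0.292 and 0.943). In the 6 pre-graft libraries of mice 4 and 5 of Experiment 1 and mice 3 and 4 of Experiment 2 it had 19 to 72 reads, and in the other 10 pre-graft libraries 258 to 695. Relative to the member median these donors lay at -5.73 to -4.88 and the others at -2.40 to -2.08, with no overlap. The EOM and the TA library of a donor fell on the same side wherever both were compared. The graft of EOM cells of mouse 4 of Experiment 1 was low too, at -6.68 with 23 reads. The grafts of mice 3 and 4 of Experiment 2 lay higher than the pre-graft libraries of these donors, at -2.45 and -1.61 in EOM and -1.84 and -3.88 in TA.

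Rpl21-ps7, an annotated pseudogene copy at chr17:45465788-45466270, followed Rpl21 before grafting. It had 0 reads in exactly those 6 pre-graft libraries and 22 to 62 in the other 10. In the EOM graft of mouse 4 of Experiment 1, which was low for Rpl21, the copy had 10 reads. The copy matches the coding sequence of Rpl21 at 470 of 480 bases (97.9%). To show where they can be told apart, bases 308 to 337 of the coding sequence are printed 5′ to 3′, with the 4 bases that differ in capitals. This stretch of 30 bases is less alike than the coding sequence as a whole.
Rpl21: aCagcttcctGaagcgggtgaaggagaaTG
Rpl21-ps7: aTagcttcctAaagcgggtgaaggagaaCT
The split of reads between Rpsa and a pseudogene differed between donors too. Rpsa-ps10, at chr3:150072590-150073620, matches the coding sequence of Rpsa at 99.3% of bases and took 5.83% to 6.92% of the reads of the pair in pre-graft libraries of mouse 3 of Experiment 1 and mice 2 and 5 of Experiment 2, and 23.8% to 29.8% in those of the other donors. Rpsa itself lay at 1.35 to 1.94 relative to the member median in the former and at 0.81 to 1.41 in the latter, with overlap. In grafts the copy took 5.72% to 6.59% of the pair in the former donors and 10.1% to 29.6% in the others. For mouse 6 of Experiment 2 it went from 24.1% in both pre-graft libraries to 13.5% in the EOM graft and 14.7% in the TA graft. In TA cells of mouse 4 of Experiment 2 it stayed, at 29.8% and 29.6%. Rplp0 lay at 1.13 to 1.61 relative to the member median in pre-graft libraries of Experiment 1 and of mice 3 and 4 of Experiment 2, and at 1.94 to 2.36 in those of mice 1, 2, 5 and 6 of Experiment 2. How reads that fit more than one copy were assigned is not given in the sources used here, so the split between a member and its copies is uncertain. The 60 pseudogenes listed under the members' names together took 0.453% to 1.31% as many reads as the members, and 47 of the 56 that aligned over at least 50% of their parent's coding sequence were over 95% identical to it.

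**Figure D3:**
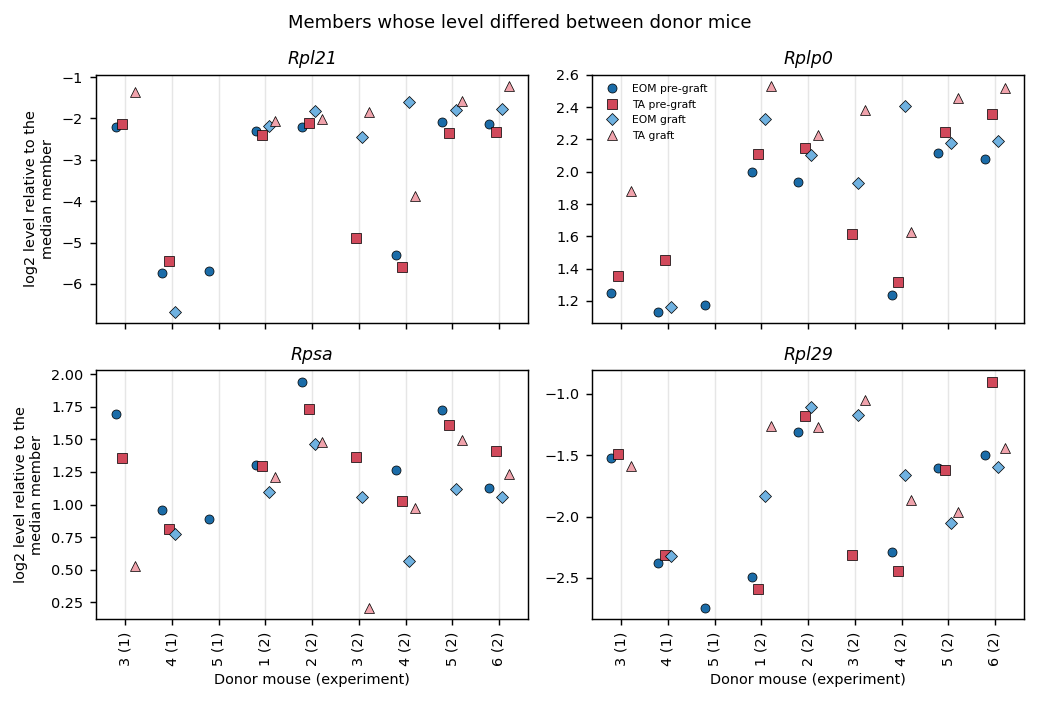
Levels of Rpl21, Rplp0, Rpsa and Rpl29 relative to the median ribosomal protein gene of the same library (log2), by donor mouse, for pre-graft and graft libraries of EOM and TA. Rpl21 lies at -5.73 to -4.88 before grafting in the donors with 19 to 72 reads and at -2.40 to -2.08 in the others.

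The wider translation machinery was read from lists of genes outside the rule, whose counts are to be read against the 21.6% of all genes lower in EOM and 10.8% in TA grafts. Of the 6 ribosomal genes that the rule does not take, 4 were lower in EOM and 4 in TA grafts, with median differences of -0.86 and -0.70. Gnb2l1 (Rack1), a scaffold on the small subunit, was lower by -1.20 ± 0.21 in EOM (SE, adjusted p = 0.00106) and -0.89 ± 0.24 in TA (adjusted p = 0.0176), whereas Fau, which encodes a small subunit protein fused to a ubiquitin-like one, stood at -0.54 ± 0.24 (SE, adjusted p = 0.0993) and -0.23 ± 0.20 (adjusted p = 0.449). Of 8 elongation factors tested 5 were lower in EOM and 3 in TA grafts, among them Eef2, which moves the ribosome along the message, at -1.30 ± 0.21 (SE, adjusted p = 0.00059) and -1.13 ± 0.20 (adjusted p = 0.00124). Eef1a1, which brings aminoacyl transfer RNA, was lower in EOM by -1.09 ± 0.18 (SE, adjusted p = 0.000654) and stood at -0.58 ± 0.22 in TA (adjusted p = 0.0662).

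Of 22 other genes known for TOP messenger RNAs, some of which are also on the lists just named, 16 were lower in EOM grafts and 8 lower in TA grafts, with medians of -0.90 and -0.66. Tpt1, one of the most abundant of them, rose in TA grafts by 0.63 ± 0.20 (SE, adjusted p = 0.0337) and stood at -0.10 ± 0.20 in EOM (adjusted p = 0.706). Of 39 initiation factors 17 were lower in EOM and 8 in TA, with medians of -0.69 and -0.49. Of 51 genes for ribosome biogenesis 17 were lower in EOM and 22 in TA, with medians of -0.90 and -1.14. Of 22 genes of mTOR and Myc control 4 and 5 were lower, with medians of -0.87 and -0.72. The 76 mitochondrial ribosomal proteins, encoded in the nucleus, gave 13 lower in EOM and 11 in TA, with medians of -0.87 and -0.95. The nuclear genes of oxidative phosphorylation had the medians nearest to 0 of these lists, -0.47 in EOM and -0.35 in TA, with 18 of 78 lower and 2 higher in EOM and 5 lower and 1 higher in TA. The cytosolic ribosomal proteins had the lowest median of these lists in EOM grafts. In TA grafts 6 of the 8 other lists had a lower median than theirs. Differences between lists were not tested.

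**Figure D4:**
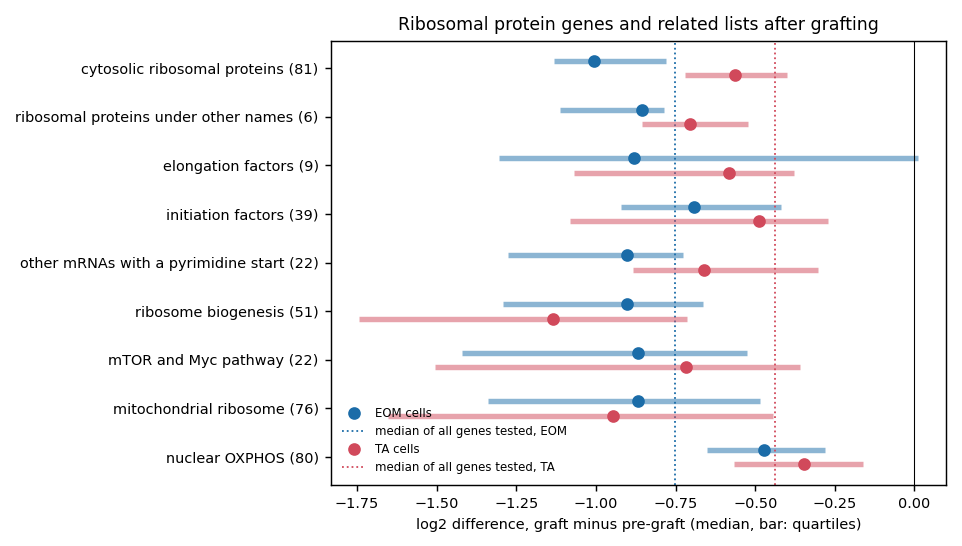
Median log2 difference of graft over pre-graft (points) with quartiles (bars) for the 81 ribosomal protein genes and related gene lists, in EOM and TA cells. Ribosomal protein genes lie at -1.005 in EOM and -0.56 in TA, and ribosome biogenesis genes at -0.90 and -1.14.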

How the data were processed

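RNA of FACS-sorted MuSCs was separated by the G&T method and sequenced as 75 bp paired ends on an Illumina HiSeq-2500. According to the methods of the study, reads were trimmed with Trim Galore (version 0.4.4) and mapped to GRCm38 with HISAT2 (version 2.1.0). The deposited values are log2 RPM from SeqMonk, one value per gene and library. The deposited quality reports give read counts per library and the percent of reads in exons and mitochondrial genes. Whole reads were recovered from the log2 RPM values, with 100.0000% of values whole within 0.05 read or 0.01%, and an absent gene stood at 0.9 read. Which annotation release and strand setting were used, and how multi-aligned reads were counted, is not given in the sources used here. The bisulfite libraries were not analysed here.

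Each library was centred on the median log2 RPM of its genes with a read. Genes over a log2 RPM of 1 in at least 4 of the libraries compared were tested with limma (3.58.1, trend, two-sided, no covariates, Benjamini-Hochberg over all genes tested), in 5 comparisons. On the recovered read counts, edgeR (4.0.16, quasi-likelihood) and DESeq2 (1.42.0) were alternatives. Other alternatives were the scaling, the filter, the pseudocount, the experiment, the donor block and leaving out each library. The mitochondrial share as a covariate and leaving out grafts of over 30% mitochondrial reads were chosen after seeing the data. The fit was tested on simulated data. Donors pair libraries of the same mouse and experiment, per the labels and methods. Deviations of same-donor libraries from their group means correlated at -0.114 to 0.226 over 7 pairs before grafting, -0.0836 to 0.126 over 7 pairs in TA, -0.249 to 0.123 over 6 pairs in EOM and -0.115 to 0.0956 over 6 pairs of grafts. In the text, fixed members were named by role, with the 5 highest and 5 lowest of each comparison as the pool for the others. Members and lists were chosen with earlier results of these data known. Sequences are from RefSeq (GRCm38.p6), except the Rpl21 pair, which is from GENCODE transcripts.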

Additional observations from a re-analysis of the deposited data

Results flagged for a closer look

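In 148 combinations of member and group of 7 or 8 libraries, 12 had a library at the edge set far apart from the rest by Dixon's criterion, where chance gives about 1 in 20. Of these, 9 belonged to the EOM pre-graft library of mouse 2 of Experiment 2, which had the highest mitochondrial share of its group (8.16%) and the lowest member median (4.70). It was the lowest library for Rpl10a at 4.70, Rpl36 at 3.71, Rpl37 at 3.45, Rpl4 at 5.79, Rps27 at 4.78, Rps27a at 5.54, Rps3 at 5.79 and Rps6 at 4.22, and the highest for Rpl39l at -2.44, with 18 reads. Rpl39l also stood out in the TA pre-graft library of mouse 6 of Experiment 2, at -3.0 with 8 reads. In EOM grafts Rpl21 was lowest in mouse 4 of Experiment 1, at -1.50, and Rplp0 in mouse 3 of Experiment 2, at 5.38. Their cause was not tested.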

How the results depend on the processing

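Before grafting, the 2 lower members became 1 when centred on genes detected in every library and within Experiment 2, and 0 when centred on the members, with all libraries, with edgeR and with the mitochondrial share as a covariate. Of all genes 3.24%, 2.01%, 1.59%, 1.02%, 2.41% and 1.82% were lower in these fits, in this order. The member median moved to 0.28 with all libraries, also those not passing, and 0.042 with the covariate. The median of all genes was -0.13 and -0.051 in these fits. Leaving out 1 library gave 1 to 8 lower members and medians of -0.42 to -0.26.

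In TA grafts the 25 lower members became 68 as deposited, 8 when centred on genes detected in every library, 2 when centred on the members, 3 within Experiment 2, 7 with all libraries, 8 with edgeR, 8 with DESeq2, 0 with the covariate and 12 without grafts of high mitochondrial share. The share of all genes lower was 5.98% with all libraries, and is given above for the other fits. The member median was -1.21 as deposited and -0.18 with the covariate, where that of all genes was -1.09 and -0.20. Leaving out 1 library gave 9 to 36 lower members (11, 12 or 14 for 5 of these fits) and medians of -0.65 to -0.47.

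In EOM grafts the 72 lower members became 40 when scaled without mitochondrial genes, 38 when centred on genes detected in every library, 1 (and 1 higher) when centred on the members, 43 with the donor block, 0 with all libraries, 21 with edgeR, 29 with DESeq2, 0 with the covariate and 21 without grafts of high mitochondrial share. The share of all genes lower was 4.03% with all libraries, and is given above for the other fits. The member median was -1.73 as deposited, -0.076 with all libraries, -0.54 with edgeR, -0.46 with DESeq2 and -0.086 with the covariate. The median of all genes in the same fits was -1.48, -0.34, -0.080, 0.0034 and -0.21. Leaving out 1 library gave 66 to 75 lower members and medians of -1.14 to -0.81. With all libraries Rpl11 (0.0062), Rplp1 (0.14) and Rps27a (0.10) turned positive, as did Rpl11 (0.14) and Rplp1 (0.17) with the covariate; their adjusted p lay between 0.921 and 0.997.

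The member median of the change of EOM minus that of TA moved to 0.39 with all libraries and -0.0014 with the covariate. The median of all genes was 0.045 and -0.049 in these fits. Leaving out 1 library gave medians of -0.54 to -0.24, and of -0.10 to 0.19 for TA over EOM grafts, with 0 members called throughout. The donor block also took the members over 2-fold lower in EOM grafts from 41 to 10 and the genes called there to 159 higher and 548 lower. Besides the 72 lower in EOM grafts that became 43, it changed no other count of members called by over 1.5 times. For the change of EOM minus that of TA, members with an unadjusted p under 0.05 in limma went from 1 to 3. Without grafts of high mitochondrial share, the member median of TA over EOM grafts was -0.27. Causes of these moves were not tested. All genes called in EOM grafts were 626 higher and 2827 lower, but 987 and 501 with edgeR and 842 and 988 when centred on genes detected in every library. In TA grafts they were 788 and 1417, but 862 and 505 with edgeR. All libraries include 1 with 302 reads on genes.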

Other observations

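The members on the X chromosome are Rpl10, Rpl36a, Rpl39 and Rps4x. All 4 were lower after grafting in both muscles, from -1.11 for Rpl10 to -1.45 for Rpl36a in EOM and from -0.64 for Rpl10 to -0.97 for Rpl39 in TA. The group was picked after these values were seen, and 32.1% of all members tested were lower in TA grafts and 92.3% in EOM grafts. In the libraries that were not compared, Rpl21 had 14 reads in the EOM pre-graft library of mouse 3 of Experiment 2 and Rpl21-ps7 had 0, as in the TA library of that donor, which had 64 and 0.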
